A study of Drosophila melanogaster with 56 samples.

Results

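The 10 genes described here encode the enzymes that build fatty acids and load them onto glycerol, and the transcription factor that drives many of them. They were chosen by name, with earlier results of these data known, from 11982 genes on an expression array of Drosophila melanogaster. The genes are AcCoAS, ATPCL, ACC, FASN1, FASN2, Desat1, mino, Lpin, mdy and SREBP. All 10 were on the array, each with 1 probe set, so isoforms of a gene could not be told apart. The arrays came from a study of food deprivation that set the fly's smell and taste organs beside the remaining head and the body. The arrays come from 6 fly pools, not all of them present at each time, after 0, 24 and 48 h without food. The flies were dissected into antenna, the palp together with the proboscis (palp hereafter), body without head, and head without its chemosensory organs. Antenna gave 4, 5 and 5 arrays at 0, 24 and 48 h, and each other part gave 5, 5 and 4, which makes 56 in all. Every group was 1 body part at 1 fasting time, with a pool of flies behind each array. No label says that the pools came from separate cultures, so p-values measure the spread between these pools. The labels used here give no genotype, strain, sex or age, and they name no agent. Since no group was kept on food for 24 or 48 h, the length of the fast cannot be told apart from age or time of handling.

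Fatty acid synthesis starts from cytosolic acetyl-CoA, which ATP citrate lyase (ATPCL) makes from citrate and acetyl-CoA synthetase (AcCoAS) makes from acetate. Acetyl-CoA carboxylase (ACC) turns it into malonyl-CoA, the committed step, and fatty acid synthase (FASN1, FASN2) joins these units into a saturated chain, into which the desaturase Desat1 sets a double bond. The glycerol-3-phosphate acyltransferase mino, the phosphatidate phosphatase Lpin (lipin) and the diacylglycerol acyltransferase mdy (midway) then lead along the glycerol route to triglyceride. SREBP, a membrane-bound factor released by proteolysis, switches on many genes of fatty acid synthesis. The fly stores triglyceride mainly in its fat body, which fills much of the abdomen and also lines the head, and draws on it during a fast.

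Signals were log2 values scaled together over all arrays, with a median of 4.04 on each array, and the number of arrays limits their precision. Differences are given as log2 units ± standard error from limma, as longer fast minus 0 h unless stated, and "rose" and "fell" are used only where the p adjusted over all features tested was below 0.05. The dissections held their own markers: the odorant receptor genes Orco and Or22a in antenna, Or42a and Or71a in palp and the photoreceptor channel gene trp in head. Other tissues varied between arrays. Summed fat body markers ran from 11.70 to 12.55 at 48 h against 13.73 to 14.75 at 0 h in antenna, from 13.97 to 14.15 against 14.88 to 15.49 in palp, from 13.29 to 13.75 against 14.24 to 14.91 in body, and from 14.39 to 14.57 against 15.51 to 15.81 in head. Thus the sum of these markers was lower on every 48 h array of each part than on any 0 h array, which need not hold for each marker. Of the 5 markers, 3 reached 4 in those groups, and Fbp1 and Fbp2 stayed below it. In such bulk samples fewer cells of a type and less RNA per cell cannot be told apart. Summed hemocyte markers were lower too, at 8.65 to 10.28 at 48 h against 11.54 to 12.05 at 0 h in body and 11.16 to 11.79 against 12.81 to 13.52 in head. Summed gut markers spread widely in head, at 9.17 to 13.77 at 48 h and 4.79 to 15.77 at 0 h. The yolk protein gene Yp1 stood at 13.3, 12.7 and 11.4 in body, head and palp replicate 1 at 48 h, all from pool 4, beside medians of 2.09, 5.43 and 4.79 over the 48 h arrays of those parts. The part of these tissues in the results below was not tested beyond the counts and values given without the arrays concerned.

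SREBP and the glycerolipid genes mino and Lpin rose in all 4 parts by 48 h of fasting, and ACC rose in palp and head. The falls were those of FASN1, FASN2, ATPCL and mdy in body and of mdy and FASN2 in head, where FASN2 passed the filter on dim features mainly through its unfasted arrays. At 48 h against 0 h, 4 of 9 tested genes rose and none fell in antenna, where 8.61% of all features tested rose and 8.97% fell. In palp 4 of 10 rose and none fell, beside 17.4% and 15.7% of all features. In body 3 rose and 4 fell, beside 29.8% and 21.0%, so the count of rises there is near the share of all features. In head 5 rose and 2 fell, beside 13.2% and 12.3%. The fall of FASN2 there is in part fixed by the filter. With FASN2 set aside, mdy alone fell in head, a count near the share of all features. AcCoAS passed the test in no part. Without the 4 pool 4 arrays of 48 h the calls numbered 3, 4, 6 and 6 in antenna, palp, body and head, and without 5 arrays of 0 and 24 h that carried gut or accessory gland transcripts 4, 5, 7 and 6. At 24 h against 0 h the counts were 3 up and 0 down in antenna (all features 2.58% and 3.15%), 4 and 0 in palp (11.0% and 12.5%), 3 and 2 in body (9.17% and 12.0%) and 3 and 1 in head (7.52% and 9.70%). The head fall at 24 h was again that of FASN2, with the same limit. With the pool of flies as a fixed block (the block meant below unless stated), antenna had 2 calls at 48 h and 1 at 24 h, and head had 7 at 24 h. In head that block called 4524 of all features at 48 h, against 1199 up and 1119 down without it. At 24 h it called 3987 there, against 683 up and 881 down. In antenna it called 1061 at 48 h, against 774 up and 806 down, and 273 at 24 h, against 232 up and 283 down. The shares of all features given here are those without the block. Between 24 and 48 h limma called none of the 10 genes in any part, with 1 of them at an unadjusted p under 0.05 in antenna, 1 in palp, 3 in body and 1 in head. Among all features tested the 48 h against 24 h calls were 0.0334% up and 0.0668% down in antenna, 2.15% and 2.07% in palp, 1.33% and 5.11% in body and 0.363% and 1.00% in head. The widest of the members' differences over those last 24 h was that of mdy in body (-0.69 ± 0.23, adjusted p = 0.0995).

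**Figure D1:**
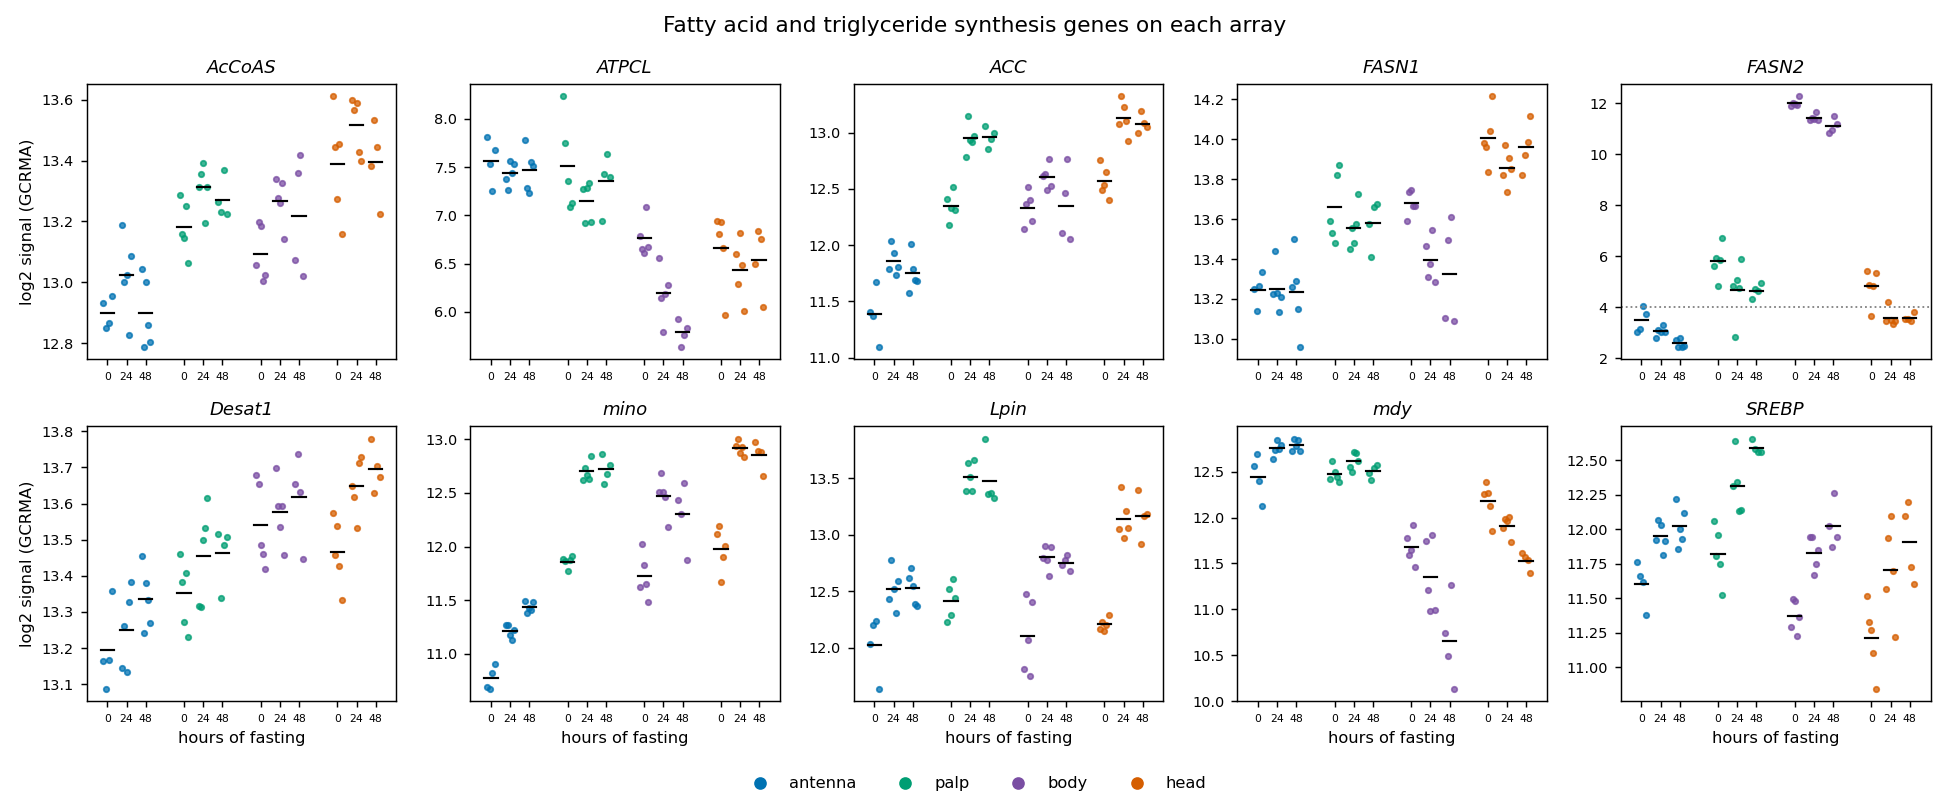
Log2 signal of each of the 10 genes (one panel each) on all 56 arrays, by hours of fasting (x axis) in antenna, palp, body and head. Points are arrays and black bars are group means; the dotted line in the FASN2 panel marks a log2 signal of 4. Points of mino and Lpin shift upward after 0 h in each part, FASN2 is high in body alone, and mdy falls in body and head.

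The supply of acetyl-CoA was read from AcCoAS and ATPCL. AcCoAS kept within 12.79 to 13.61 over all 56 arrays. Its 48 h minus 0 h differences were -0.0018 ± 0.0850 in antenna, 0.09 ± 0.07 in palp, 0.12 ± 0.10 in body and 0.01 ± 0.10 in head, with adjusted p from 0.301 to 0.992. The groups overlapped in each part. ATPCL in body measured 6.79, 6.65, 6.61, 7.09 and 6.67 at 0 h, 6.56, 6.15, 5.80, 6.19 and 6.28 at 24 h, then 5.93, 5.64, 5.76 and 5.83 at 48 h. Every fasted body array lay below every unfasted one, and at 48 h ATPCL stood 1.96-fold lower (-0.97 ± 0.14, adjusted p = 0.000188). At 24 h it had fallen by 0.57 ± 0.13 (adjusted p = 0.00997), a call lost with the level of gut transcripts as a covariate (adjusted p = 0.0590). ATPCL differed by -0.09 ± 0.13 in antenna and -0.16 ± 0.22 in palp at 48 h, with adjusted p of 0.657 and 0.635. In head it measured 6.94, 6.81, 6.93, 6.66 and 5.97 at 0 h, 6.59, 6.28, 6.81, 6.48 and 6.01 at 24 h, then 6.49, 6.84, 6.75 and 6.05 at 48 h. These head groups overlapped, and replicate 5 at 0 h, the only head array of its pool, lay apart from the other 4 unfasted ones. The head difference was -0.13 ± 0.23 at 48 h (adjusted p = 0.697) and -0.22 ± 0.21 at 24 h (adjusted p = 0.470). With the pool as a block, in which that array adds nothing, ATPCL fell in head by 0.36 at 48 h (adjusted p = 0.0281) and by 0.43 at 24 h (adjusted p = 0.0114).

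ACC, the committed step, rose in palp and head and did not pass the test in body. The palp values were 12.41, 12.18, 12.33, 12.52 and 12.31 at 0 h, 12.78, 13.15, 12.94, 12.92 and 12.97 at 24 h, then 13.06, 12.86, 12.94 and 12.99 at 48 h. The head values were 12.75, 12.49, 12.53, 12.65 and 12.40 at 0 h, 13.07, 13.32, 13.22, 13.10 and 12.93 at 24 h, then 13.00, 13.19, 13.08 and 13.05 at 48 h. All fasted arrays of both parts lay above all unfasted ones. At 48 h ACC was 1.53-fold higher in palp (0.61 ± 0.09, adjusted p = 0.000219) and 1.43-fold higher in head (0.51 ± 0.10, adjusted p = 0.00216), and the 24 h differences were 0.60 and 0.56 (adjusted p = 0.000336 and 0.00125). In antenna ACC measured 11.40, 11.38, 11.68 and 11.10 at 0 h, 11.78, 12.04, 11.93, 11.73 and 11.81 at 24 h, then 11.58, 12.01, 11.78, 11.69 and 11.68 at 48 h. It rose there at 24 h (0.47 ± 0.12, adjusted p = 0.0340) but stood at 0.36 ± 0.12 at 48 h (adjusted p = 0.0503). The antennal calls were unsteady. The 24 h one was lost with the pool as a fixed block (adjusted p = 0.126), without the 5 arrays with gut or accessory gland transcripts (0.0719), with no filter (0.0655), with either the gut level (0.0510) or RNA quality (0.0504) as a covariate, and when 0 h replicate 1, 2 or 4, 24 h replicate 2, 3 or 6, or 48 h replicate 5 was left out (adjusted p from 0.0510 to 0.104). The 48 h difference became a call without 0 h replicate 3 (adjusted p = 0.0205), with quantile (0.0497) or cyclic loess scaling (0.0479), a random pool block (0.0385), array weights (0.0474) and a single fit (0.0187). In body ACC measured 12.15, 12.36, 12.52, 12.40 and 12.22 at 0 h, 12.62, 12.63, 12.49, 12.77 and 12.53 at 24 h, then 12.11, 12.46, 12.77 and 12.06 at 48 h. Those groups overlapped, with differences of 0.28 ± 0.13 at 24 h (adjusted p = 0.147) and 0.02 ± 0.14 at 48 h (adjusted p = 0.918).

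Both fatty acid synthase genes fell in body at 48 h. FASN1, the main synthase of the fat body, stood between 12.96 and 14.22 on all arrays. In body it measured 13.59, 13.74, 13.74, 13.67 and 13.67 at 0 h, 13.47, 13.31, 13.38, 13.55 and 13.28 at 24 h, then 13.11, 13.50, 13.61 and 13.09 at 48 h. The 24 h arrays all lay below the unfasted ones, while 1 of the 4 arrays at 48 h did not. FASN1 fell in body by 0.35 ± 0.11 at 48 h (adjusted p = 0.0208). This call was lost without 48 h replicate 1, the array with yolk protein transcripts (adjusted p = 0.0744), without 48 h replicate 4 (0.0712) and with the gut level as a covariate (0.165). At 24 h the body difference was -0.28 ± 0.11 (adjusted p = 0.0755; 0.0423 with the pool as a block). In antenna, palp and head the 48 h differences of FASN1 were -0.01 ± 0.10, -0.08 ± 0.10 and -0.05 ± 0.09, and none passed the test (adjusted p from 0.598 to 0.935).

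FASN2, the neighbour of FASN1 on chromosome arm 2L, is known from the oenocytes, the cuticular hydrocarbon cells of the abdomen. In body it measured 11.88, 12.02, 11.96, 11.95 and 12.28 at 0 h, 11.36, 11.43, 11.37, 11.66 and 11.36 at 24 h, then 10.84, 10.97, 11.51 and 11.18 at 48 h. Every fasted body array lay below every unfasted one, and FASN2 fell 1.49-fold by 24 h (-0.58 ± 0.13, adjusted p = 0.00592) and 1.85-fold by 48 h (-0.89 ± 0.13, adjusted p = 0.000210). Only the 24 h call was lost among the settings tried, in a single fit over all parts (adjusted p = 0.149). The oenocyte marker Cyp4g1, an oxidative decarbonylase of hydrocarbon synthesis, had overlapping ranges: summed oenocyte markers ran from 14.22 to 14.49 in body at 48 h, against 14.23 to 14.56 at 0 h, with eloF and Fad2 below 4 at 0 h. In head FASN2 was dim, at 5.44, 4.87, 3.65, 4.81 and 5.36 at 0 h, 3.46, 4.18, 3.50, 3.33 and 3.47 at 24 h, then 3.52, 3.52, 3.47 and 3.82 at 48 h. It fell there by 1.24 ± 0.30 at 48 h (adjusted p = 0.00893), at least 1.77-fold since all 4 arrays lay below 4, and by 1.23 ± 0.28 at 24 h (adjusted p = 0.00962). FASN2 reached 4 on 4 unfasted head arrays, 1 at 24 h and none at 48 h, so it was tested in head mainly because it was high before fasting, and its fall there is in part fixed by the filter. The head groups overlapped through unfasted replicate 3. In palp it measured 5.62, 5.94, 4.82, 5.87 and 6.71 at 0 h, 4.85, 2.83, 5.06, 4.76 and 5.90 at 24 h, then 4.32, 4.71, 4.63 and 4.93 at 48 h, with differences of -1.15 ± 0.49 at 48 h (adjusted p = 0.0935) and -1.11 ± 0.47 at 24 h (adjusted p = 0.101). These became calls without 24 h replicate 2, the lowest palp array (adjusted p = 0.0160 at 48 h), and without 24 h replicate 5 (0.0427 at 24 h), with RNA quality as a covariate (0.0157 and 0.0191 at 48 and 24 h), without the 5 arrays with gut or accessory gland transcripts (0.0331 at 48 h), and in a single fit over all parts (0.00581 and 0.00641 at 48 and 24 h). In antenna 1 of 14 arrays reached 4 and FASN2 was not tested.

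The desaturase Desat1, which makes monounsaturated chains for membranes, storage and pheromones, stood between 13.09 and 13.78 everywhere. In head it measured 13.57, 13.46, 13.54, 13.43 and 13.33 at 0 h, 13.65, 13.62, 13.53, 13.71 and 13.73 at 24 h, then 13.78, 13.63, 13.70 and 13.67 at 48 h. The 48 h arrays lay just above the unfasted ones, a rise of 0.23 ± 0.08 (adjusted p = 0.0448). It was lost with the pool as a block (adjusted p = 0.0838), with cyclic loess scaling (0.185) and without any 1 of 11 head arrays, which were 0 h replicates 2, 3, 4 and 5, 24 h replicates 1, 2 and 4 and all of 48 h (adjusted p from 0.0519 to 0.103). With either RNA quality or the gut level as a covariate, head had 4 rises among the 10 genes at 48 h, in place of 5. Differences elsewhere at 48 h were 0.14 ± 0.08 in antenna, 0.11 ± 0.09 in palp and 0.08 ± 0.09 in body, none past the test (adjusted p from 0.254 to 0.482).

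At the entry to glycerolipids, mino rose in each part and at both fasting times. In antenna it measured 10.69, 10.67, 10.82 and 10.91 at 0 h, 11.27, 11.27, 11.17, 11.13 and 11.22 at 24 h, then 11.49, 11.38, 11.42, 11.41 and 11.48 at 48 h. In palp it measured 11.88, 11.86, 11.77, 11.87 and 11.91 at 0 h, 12.62, 12.74, 12.67, 12.63 and 12.85 at 24 h, then 12.86, 12.58, 12.68 and 12.76 at 48 h. All fasted arrays of these organs lay above all unfasted ones. In body mino measured 11.63, 12.02, 11.83, 11.65 and 11.48 at 0 h, 12.51, 12.69, 12.51, 12.46 and 12.19 at 24 h, then 12.44, 12.31, 12.59 and 11.87 at 48 h. Heads gave 12.12, 12.20, 11.67, 11.90 and 12.00 at 0 h, 12.93, 13.01, 12.87, 12.93 and 12.84 at 24 h, then 12.98, 12.89, 12.88 and 12.66 at 48 h. Body replicate 4 at 48 h alone lay among the unfasted values. At 48 h mino was 1.58-fold higher in antenna (0.66 ± 0.07, adjusted p = 4.7e-05), 1.82-fold in palp (0.86 ± 0.08, 4.5e-06), 1.5-fold in body (0.58 ± 0.15, 0.00902) and 1.83-fold in head (0.87 ± 0.11, 7.3e-05). The 24 h differences were 0.44, 0.84, 0.75 and 0.94 in the same order of parts (adjusted p of 0.00256, 6.1e-06, 0.00283 and 5.4e-05). None of these 8 calls was lost under any other setting or without any single array.

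Lpin, which turns phosphatidate into diacylglycerol and is needed for a normal fat body, rose alongside. In palp it measured 12.23, 12.52, 12.29, 12.61 and 12.44 at 0 h, 13.38, 13.63, 13.51, 13.39 and 13.66 at 24 h, then 13.85, 13.36, 13.37 and 13.33 at 48 h. Heads gave 12.16, 12.23, 12.15, 12.21 and 12.29 at 0 h, 13.05, 13.43, 12.97, 13.21 and 13.06 at 24 h, then 13.39, 12.92, 13.16 and 13.18 at 48 h. No fasted array of either part reached down to the unfasted ones, and the 24 and 48 h values intermingled. At 48 h Lpin was 2.09-fold higher in palp (1.06 ± 0.12, adjusted p = 3.4e-05) and 1.94-fold higher in head (0.96 ± 0.11, adjusted p = 4.4e-05). In antenna Lpin measured 12.03, 12.20, 12.24 and 11.64 at 0 h, 12.43, 12.77, 12.52, 12.31 and 12.59 at 24 h, then 12.62, 12.71, 12.55, 12.38 and 12.37 at 48 h. Bodies gave 11.81, 12.47, 12.07, 11.75 and 12.41 at 0 h, 12.79, 12.90, 12.78, 12.63 and 12.89 at 24 h, then 12.74, 12.78, 12.82 and 12.68 at 48 h. Both sets separated fasted from unfasted arrays by a narrow gap, with unfasted arrays spread over more than the fasted ones. The 48 h rise was 0.50 ± 0.13 in antenna (adjusted p = 0.0204) and 0.65 ± 0.14 in body (adjusted p = 0.00316). The antennal 48 h call was lost without 0 h replicate 4, its lowest array (adjusted p = 0.0562), and the body one with the gut level as a covariate (0.0538). At 24 h Lpin rose in palp by 1.10 ± 0.12, in body by 0.70 ± 0.14 and in head by 0.94 ± 0.10 (adjusted p of 2.9e-05, 0.00281 and 7.1e-05). Antenna's 24 h rise of 0.50 ± 0.13 (adjusted p = 0.0443) was lost with the pool as a block (adjusted p = 0.0666) and without any 1 of 9 arrays, namely 0 h replicates 1, 2 and 4, 24 h replicates 2, 3 and 6 and 48 h replicates 1, 3 and 5 (adjusted p from 0.0515 to 0.116). That call was also lost with no filter and with either the gut level or RNA quality as a covariate. Array weights left 2 of the 10 genes called in antenna at 24 h.

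The last step to triglyceride, mdy, fell in body and head by 48 h and rose in antenna. Summed fat body markers were lower at 48 h in each part, antenna and palp included. Their part in the changes of mdy was not tested. In body mdy measured 11.78, 11.60, 11.65, 11.92 and 11.46 at 0 h, 11.75, 11.21, 10.98, 11.81 and 10.99 at 24 h, then 10.74, 10.50, 11.26 and 10.14 at 48 h. In head it measured 12.25, 12.39, 12.27, 12.12 and 11.85 at 0 h, 11.89, 11.98, 11.96, 12.01 and 11.73 at 24 h, then 11.62, 11.57, 11.54 and 11.40 at 48 h. No 48 h array of body or head overlapped the unfasted ones, while 24 h values lay between or among them. At 48 h mdy fell 2.03-fold in body (-1.02 ± 0.23, adjusted p = 0.00371) and 1.57-fold in head (-0.65 ± 0.11, adjusted p = 0.000799). The body call was lost with the gut level as a covariate (-0.63, adjusted p = 0.0685). At 24 h the differences were -0.33 ± 0.22 in body (adjusted p = 0.271) and -0.27 ± 0.10 in head (adjusted p = 0.0898), and both were falls with the pool as a block (adjusted p = 0.0459 and 0.00300). So were the 48 h against 24 h differences, at -0.74 in body and -0.36 in head in the blocked fit (adjusted p = 0.0343 and 0.0183). Leaving out head 0 h replicate 5 also made the 24 h fall in head a call (adjusted p = 0.0123). In antenna mdy measured 12.57, 12.69, 12.40 and 12.13 at 0 h, 12.64, 12.73, 12.85, 12.75 and 12.79 at 24 h, then 12.73, 12.86, 12.78, 12.84 and 12.72 at 48 h. The 48 h arrays lay above the unfasted ones, a rise of 0.34 ± 0.10 (adjusted p = 0.0322) that was lost with the pool as a block (adjusted p = 0.162) and without any 1 of 6 arrays, namely 0 h replicates 3 and 4 and 48 h replicates 1, 2, 3 and 5 (adjusted p up to 0.0829). Palp differed by 0.03 ± 0.08 at 48 h (adjusted p = 0.796).

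SREBP transcript rose with fasting in all 4 parts. In palp it measured 12.06, 11.81, 11.96, 11.75 and 11.52 at 0 h, 12.31, 12.64, 12.34, 12.13 and 12.14 at 24 h, then 12.66, 12.58, 12.56 and 12.56 at 48 h. In body it measured 11.29, 11.50, 11.48, 11.22 and 11.36 at 0 h, 11.95, 11.94, 11.67, 11.75 and 11.85 at 24 h, then 12.03, 11.87, 12.26 and 11.94 at 48 h. The 48 h arrays of both parts stood clear of the unfasted ones. In antenna SREBP measured 11.76, 11.66, 11.62 and 11.38 at 0 h, 11.92, 12.06, 12.03, 11.81 and 11.91 at 24 h, then 12.22, 11.85, 12.00, 11.93 and 12.12 at 48 h. In head it measured 11.52, 11.33, 11.27, 11.10 and 10.84 at 0 h, 11.57, 11.94, 12.10, 11.70 and 11.22 at 24 h, then 12.09, 12.20, 11.73 and 11.61 at 48 h. Fasted and unfasted antennae did not overlap, whereas in head the 24 h arrays reached down into the unfasted range and the 48 h arrays did not. The 48 h rise was 0.42 ± 0.10 in antenna (adjusted p = 0.0122), 0.77 ± 0.12 in palp (0.000352), 0.65 ± 0.10 in body (0.000266) and 0.69 ± 0.19 in head (0.0170), or 1.34-, 1.71-, 1.57- and 1.62-fold. With the pool as a block the antennal rise missed the threshold (adjusted p = 0.0537), and without 48 h replicate 2 the head one did (0.60, adjusted p = 0.0501). At 24 h SREBP rose in palp (0.49 ± 0.11, adjusted p = 0.00779) and body (0.46 ± 0.10, adjusted p = 0.00437). It stood at 0.34 ± 0.10 in antenna (adjusted p = 0.0605; 0.0428 with a random pool block) and 0.49 ± 0.18 in head (adjusted p = 0.0741), the head one a rise with the pool as a block (adjusted p = 0.0297) and without 24 h replicate 5 (0.0317).

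**Figure D2:**
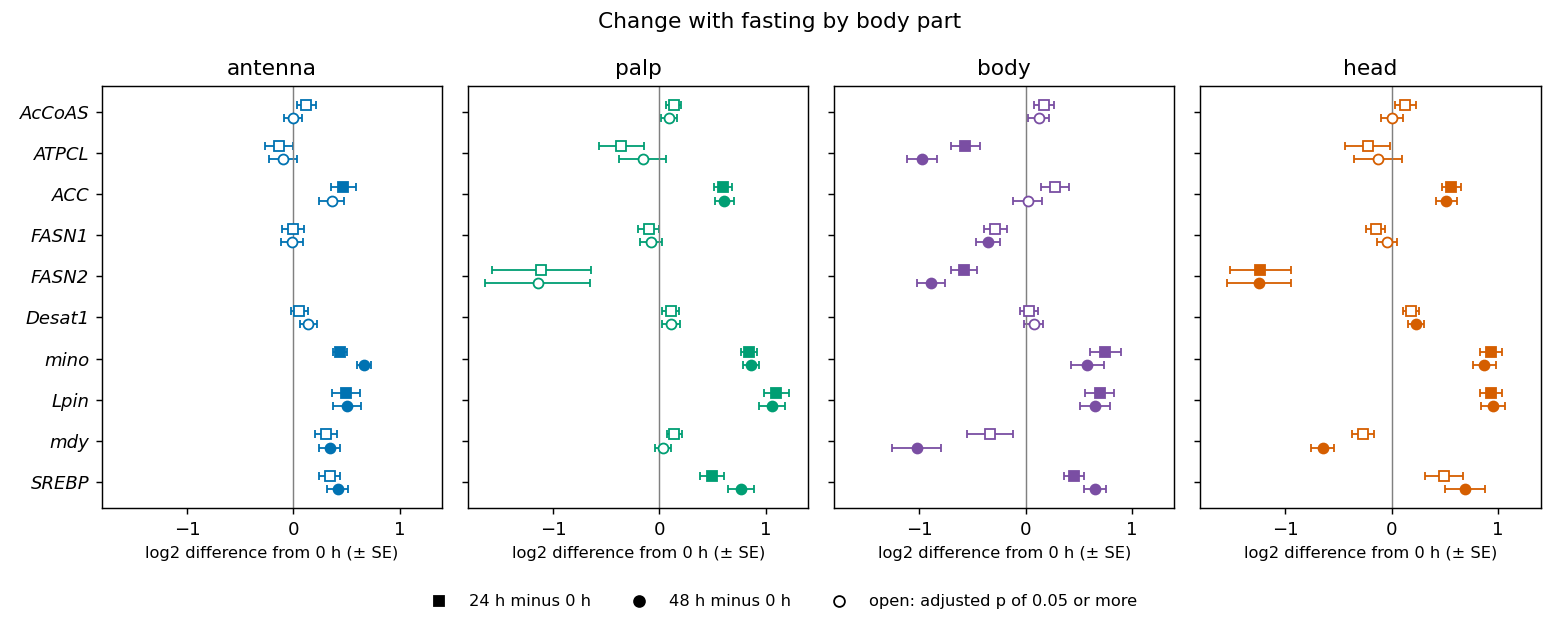
Log2 difference of each gene from 0 h (x axis) at 24 h (squares) and 48 h (circles) in antenna, palp, body and head, with standard errors from limma as bars; filled symbols have an adjusted p below 0.05. SREBP, Lpin and mino lie right of zero in each panel at 48 h, while FASN2, ATPCL and mdy lie to the left in body.

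Whether a part's response differed from that of head was tested on the difference between their 48 h minus 0 h changes, in 1 fit over all arrays. For antenna 1 of 10 genes passed, mdy, whose change was 0.99 ± 0.20 above that in head (adjusted p = 0.000900), beside 2.67% of all features higher and 1.72% lower. It was called in each other setting and without each array in turn. For palp the same gene passed with 0.68 ± 0.20 (adjusted p = 0.0463), beside 2.34% and 1.37%. This call was lost without any 1 of 33 arrays, spread over all 4 parts (adjusted p up to 0.120). For body, the change minus that in head was -0.49 ± 0.16 for ACC (adjusted p = 0.0199) and -0.84 ± 0.27 for ATPCL (adjusted p = 0.0219), beside 10.6% and 9.21% of all features. The ACC difference was lost without body 48 h replicate 1 or 4 (adjusted p = 0.0738 and 0.0803), and the ATPCL one without head 48 h replicate 2 or 3 or head 0 h replicate 5 (0.0581, 0.0533 and 0.0573). Without body 48 h replicate 3, by contrast, FASN1, mdy and mino also passed (-0.40, -0.58 and -0.39, adjusted p = 0.0291, 0.0201 and 0.0487). With all arrays, the rises of SREBP, Lpin and mino were not shown to differ from those in head. Their differences from head ran from -0.45 to 0.11, with adjusted p of 0.164 or more. Changes in antenna, palp and body were not tested against one another.

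Before fasting the genes already differed between parts. Against head, 8 of 10 differed in antenna (2 higher and 6 lower, beside 26.4% and 22.5% of all features), 6 in palp (4 and 2, beside 30.7% and 23.2%) and 6 in body (1 and 5, beside 31.4% and 54.5%). The palp and body counts are near those shares, apart from fewer higher genes in body. Cyclic loess scaling turned the balance of higher and lower genes in palp (2 higher and 3 lower) and body (3 and 2), and gave 1 and 6 in antenna. Without the 5 arrays with gut or accessory gland transcripts the calls numbered 6, 4 and 4, and without single arrays 7 to 9, 4 to 6 and 4 to 6. Lost without those 5 were Desat1 and SREBP in antenna (adjusted p = 0.0632 and 0.0559), FASN2 and AcCoAS in palp (0.0643 and 0.130) and ACC and mino in body (0.0541 and 0.104). FASN2 set body apart from the rest, with means (± SD) of 3.48 ± 0.47 in antenna, 5.79 ± 0.68 in palp, 12.02 ± 0.15 in body and 4.82 ± 0.72 in head, and body over head was 146-fold (7.19 ± 0.33, adjusted p = 3.7e-13). The next in order, palp over head, was 0.97 ± 0.33 (adjusted p = 0.0202), with overlapping arrays, and was lost without palp 0 h replicate 5 or head 0 h replicate 3 (adjusted p = 0.0640 and 0.0626). FASN1 averaged 13.25 ± 0.08 in antenna, 13.66 ± 0.18 in palp, 13.68 ± 0.06 in body and 14.01 ± 0.14 in head. Head was thus highest, and antenna (-0.76 ± 0.09), palp (-0.35 ± 0.09) and body (-0.33 ± 0.09) were all lower (adjusted p = 1.2e-06, 0.00201 and 0.00176), the body call being lost with RNA quality (3' minus 5' signal of control genes) as a covariate (adjusted p = 0.209). ACC averaged 11.39 ± 0.24 in antenna, 12.35 ± 0.13 in palp, 12.33 ± 0.15 in body and 12.57 ± 0.14 in head, and mino 10.77 ± 0.11 in antenna, 11.86 ± 0.05 in palp, 11.72 ± 0.21 in body and 11.98 ± 0.20 in head. Antenna was lowest in both, 2.26-fold below head for ACC and 2.31-fold for mino (adjusted p = 5.9e-08 and 4.0e-08), with no overlap. ATPCL, at 7.57 ± 0.24 in antenna, 7.51 ± 0.48 in palp, 6.76 ± 0.19 in body and 6.66 ± 0.40 in head, was higher in antenna (0.90 ± 0.23, adjusted p = 0.00290) and palp (0.84 ± 0.22, adjusted p = 0.00278). SREBP, at 11.60 ± 0.16 in antenna, 11.82 ± 0.21 in palp, 11.37 ± 0.12 in body and 11.21 ± 0.25 in head, was higher in palp (0.61 ± 0.12, adjusted p = 0.000378) and, less firmly, in antenna (0.39 ± 0.13, adjusted p = 0.0182; 0.0632 without antenna 0 h replicate 1 and 0.0516 without head 0 h replicate 5). For mdy the means were 12.45 ± 0.24 in antenna, 12.47 ± 0.09 in palp, 11.68 ± 0.17 in body and 12.18 ± 0.20 in head, with body below head (-0.50 ± 0.12, adjusted p = 0.000661; 0.127 with cyclic loess scaling). Lpin averaged 12.03 ± 0.27 in antenna, 12.42 ± 0.16 in palp, 12.10 ± 0.33 in body and 12.21 ± 0.06 in head, Desat1 13.19 ± 0.11 in antenna, 13.35 ± 0.10 in palp, 13.54 ± 0.12 in body and 13.47 ± 0.09 in head and AcCoAS 12.90 ± 0.05 in antenna, 13.18 ± 0.09 in palp, 13.09 ± 0.09 in body and 13.39 ± 0.18 in head. The scaling matters for body, since cyclic loess moved the median of all features in body over head by 0.799: with it ACC and mino turned to 0.066 and 0.21 from their lower values here (-0.24 and -0.26) and ATPCL became higher (2.07).

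Around these genes, the rest of lipid metabolism moved in both directions. Of 12 listed regulators of lipid synthesis, 3 rose and 1 fell of 11 tested in antenna at 48 h, 6 and 1 of 11 in palp, 5 and 1 of 10 in body and 5 and 1 of 11 in head. Over all features 8.61% rose and 8.97% fell in antenna, 17.4% and 15.7% in palp, 29.8% and 21.0% in body and 13.2% and 12.3% in head. The count of 1 fall in each part is near or below those shares. Median differences were 0.23, 0.48, 0.33 and 0.30, beside 0.04, 0.02, 0.10 and 0.08 over all features. The gene that fell in each part was sug (sugarbabe, a sugar-responsive activator of lipid synthesis), by 2.30, 2.43, 2.98 and 2.63, with adjusted p of 0.000858, 0.00134, 0.0161 and 0.000267. Those that rose included bigmax, the partner of the sugar sensor Mondo (0.50 ± 0.11 in antenna, 1.03 ± 0.10 in palp, 1.03 ± 0.14 in body and 0.88 ± 0.15 in head). SCAP, which escorts SREBP to its proteases, rose by 0.48 ± 0.11 in antenna, 0.83 ± 0.11 in palp and 0.76 ± 0.13 in head, and S2P, one of those proteases, by 0.83 ± 0.13 in body (adjusted p of 0.0112, 0.000105, 0.000829 and 0.000230). S2P rose in head too (0.40 ± 0.10, adjusted p = 0.00956) but did not pass the test in antenna (0.13 ± 0.09, adjusted p = 0.372). SCAP rose in body at 24 h (0.43 ± 0.12, adjusted p = 0.0181).

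Chain elongation and further desaturation, a list that also holds the third synthase FASN3, fell in body for all 9 members tested at 48 h (median -1.18), beside 21.0% of all features. The elongase genes Elo68alpha (-3.16 ± 0.40) and sit (-2.68 ± 0.39) led, with Elovl7 at -1.58 ± 0.21 (adjusted p of 6.6e-05, 0.000161 and 0.000104). In body the summed accessory gland markers were lower too, at 15.70 to 16.20 at 48 h against 16.71 to 16.92 at 0 h. Of 7 tested elsewhere, 2 rose and 2 fell in antenna, none rose and 5 fell in palp, and none rose and 3 fell in head, beside falls of 8.97%, 15.7% and 12.3% of all features. Hacd1, the dehydratase of the elongation cycle, fell by 0.85 ± 0.08, 1.08 ± 0.14 and 1.17 ± 0.21 in these 3 parts. In antenna FASN3 rose by 1.23 ± 0.33 (adjusted p = 0.0209), a call lost without 0 h replicate 4 (adjusted p = 0.0552).

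Of the other glycerolipid enzymes, none rose and 3 of 7 tested fell in antenna at 48 h, none and 3 of 7 in palp, 1 and 4 of 6 in body and none and 4 of 7 in head, beside falls of 8.97%, 15.7%, 21.0% and 12.3% of all features. Agpat4, an acyltransferase of the step between mino and Lpin, fell in each part (-1.18 ± 0.14, -1.17 ± 0.14, -1.77 ± 0.16 and -1.68 ± 0.28). Its neighbours in the route rose in the same samples. CG1941, of the diacylglycerol acyltransferase family, fell by 2.37 ± 0.33 in body and 0.84 ± 0.14 in head. Phospholipid synthesis gave 2 rises and no fall of 8 tested in antenna, 3 and 1 in palp, 3 and 2 in body and 3 and none in head. The body counts lie near the 29.8% and 21.0% of all features that rose and fell there. Over all features the rises made up 8.61% in antenna, 17.4% in palp and 13.2% in head. Pcyt1, which makes CDP-choline for phosphatidylcholine, rose by 0.53 ± 0.09, 1.74 ± 0.13, 1.15 ± 0.14 and 0.85 ± 0.11. Among 4 tested suppliers of acetyl-CoA, glycerol phosphate and NADPH none rose, and 0, 1, 2 and 2 fell in antenna, palp, body and head. Over all features 8.97%, 15.7%, 21.0% and 12.3% fell in the same order of parts. With 4 genes, the absence of rises and the falls in antenna and palp are near the shares of all features. Zw, Pgd, sea and kdn of this list had no match on the array. With the pool as a block, Gpdh1 in body was lost (adjusted p = 0.119).

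Lipid droplet and lipolysis genes held the largest of the 48 h differences in these lists in palp, body and head; in antenna sug exceeded them. Lsd-1, the droplet coat protein perilipin, fell by 2.10 ± 0.27 in antenna, 3.29 ± 0.28 in palp, 3.17 ± 0.30 in body and 4.23 ± 0.39 in head at 48 h. Jabba, another droplet protein, fell by 1.84 ± 0.15 in palp, 4.43 ± 0.48 in body and 4.09 ± 0.24 in head. Seipin, which shapes droplets, fell by 2.44 ± 0.56 in body (adjusted p = 0.00405). The triglyceride lipase gene bmm (brummer) rose by 1.05 ± 0.13 in antenna, 1.71 ± 0.12 in palp and 1.87 ± 0.11 in head (adjusted p of 0.000203, 6.9e-07 and 9.3e-08). In body bmm rose by 1.02 ± 0.11 at 24 h (adjusted p = 7.5e-05), with a 48 h minus 24 h difference of -0.02 ± 0.12. Of 7 tested, 1 rose and 1 fell in antenna, 2 and 2 in palp, 2 and 4 in body and 1 and 2 in head. Over all features 8.61% rose and 8.97% fell in antenna, 17.4% and 15.7% in palp, 29.8% and 21.0% in body and 13.2% and 12.3% in head. The antennal counts and the rises in body and head are thus near those shares. The members' own 48 h differences ran from -1.24 for FASN2 in head to 1.06 for Lpin in palp.

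**Figure D3:**
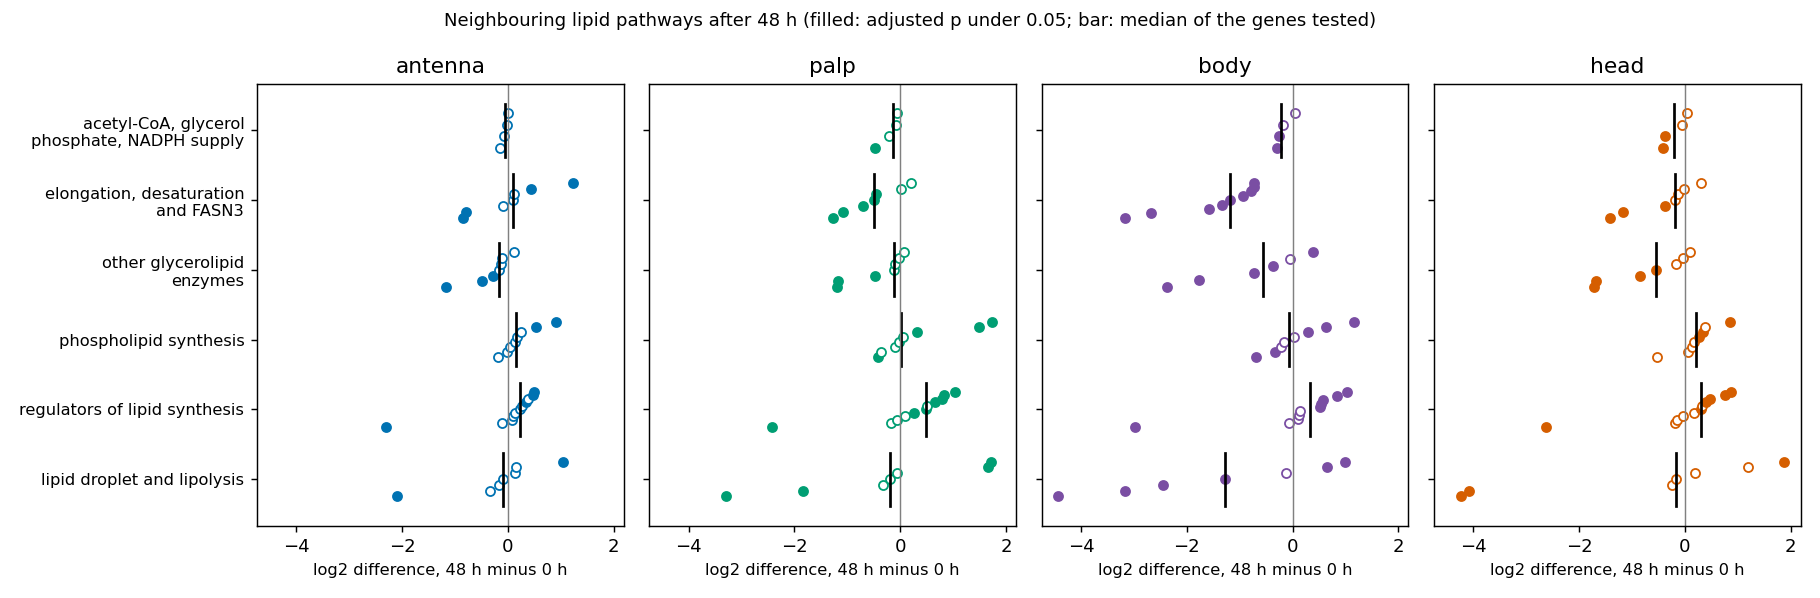
Log2 difference at 48 h minus 0 h (x axis) of every tested gene in 6 further lists of lipid metabolism (rows), in antenna, palp, body and head. Each point is a gene, filled where limma's adjusted p was below 0.05, and the vertical bar is the list's median. Elongation and lipid droplet genes reach furthest left in body, and regulators lie mostly right of zero apart from sug at the far left.

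Genes with profiles like those of the 10 were sought with Pearson's r over the 8 changes from 0 h (24 and 48 h in 4 parts) among 7180 features tested in every part. The changes of a part share their 0 h arrays, so the correlations are descriptions. SREBP was followed most closely by Gadd45 (r = 0.98), CG3356 (0.98) and CG12576 (0.98), and Lpin by CG5639 (0.99), spri (0.97) and the trehalose-6-phosphate synthase gene Tps1 (0.97). The gene nearest to mino among named ones was Gyg, which encodes glycogenin (r = 0.93). mdy was matched by CG14259 (0.99), Spn42Dd (0.98) and Cyp4d8 (0.98), ATPCL by CG15864 (0.99), JMJD5 (0.99) and CG6071 (0.98), and ACC by Qsox2 and Drep1 (0.98 each). For FASN1 these were CG3652 (0.99) and Tango14 (0.98), for Desat1 CG43062 (0.98), pst (0.96) and CG14022 (0.96), and for AcCoAS Sodh1 (0.97). FASN2 has no such profile because it was not tested in antenna.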

How the data were processed

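RNA was measured on 56 one-colour Affymetrix arrays, after extraction and amplification of total RNA per the labels' protocols. The authors deposited log2 signals made with GCRMA, per the submitters' processing notes; its version is not given in the labels. Sorted arrays differed by at most 0.033, so the deposited log2 values share 1 distribution over all body parts, and a change in total RNA cannot be read from them. Values ran from 2.08 to 15.4, and 50.4% of the non-control probe sets' values reached 4. Of 18952 probe sets, 183 controls were left out, 13647 had 1 gene, 4720 had none and 402 had several and were not named. Where a gene had several probe sets the one with the highest mean was kept, giving 17104 features for 11982 genes; gene names were updated through RefSeq. A feature was tested in a part when it reached 4 on at least 4 arrays.

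Times were compared with limma 3.58.1 in R 4.3.3, in a fit per part with 3 group means, as two-sided moderated tests with Benjamini-Hochberg adjustment over all features tested. The change in a part was set against that in head within 1 model of all 56 arrays, and unfasted parts were compared on the 0 h arrays alone. The tests were tried on simulated data. Plots used matplotlib 3.10.9 (Python 3.11.15). Pool numbers pair arrays across times, since the design text says that each pool was sampled at every time and then divided; no block was used in the main tests. Residuals of arrays of 1 pool correlated at a mean r of 0.12 in antenna, 0.13 in palp, 0.11 in body and 0.20 in head, against -0.02, -0.03, -0.02 and -0.04 between pools. Not every pool is complete: 9 has 0 h arrays only, 7 lacks 0 h, 6 lacks unfasted antenna, and 5 has 48 h arrays of antenna alone.

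The 10 genes and all lists were chosen with earlier results of these data known. All 10 genes are named in each comparison. Of each further list, the text names genes among the 3 called ones of largest difference. Some values of bmm, SCAP and S2P from other parts or times were added. As most alike, the text names the 3 features of highest correlation, where they have a name. Other settings were no filter, quantile scaling again, cyclic loess scaling, pool as a fixed or random block, array weights, a single fit of all parts, a test of every probe set, and dropping each array in turn. Added after the data were seen were covariates for RNA quality (3' minus 5' signal of control genes) and for the gut level, leaving out 5 arrays with gut or accessory gland transcripts (0 h replicate 2 of antenna, palp and head, 24 h replicate 1 of antenna and 2 of palp), and leaving out the pool 4 arrays at 48 h. The body 48 h array named differently in title and source was taken by its title. Fold bounds for a group below 4 on every array used 4, or the array's own value, as its level.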

Additional observations from a re-analysis of the deposited data

Results flagged for a closer look

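In 5 of 120 groups of arrays 1 array lay far from the rest of its group, where chance gives about 1 group in 20. ATPCL stood at 5.97 in unfasted head replicate 5, below the other 4 arrays (6.66 to 6.94). FASN2 stood at 11.66 in body replicate 4 at 24 h, above 11.36 to 11.43. In head, FASN2 stood at 4.18 in replicate 2 at 24 h, above 3.33 to 3.51, and at 3.82 in replicate 4 at 48 h, above 3.47 to 3.52. Lpin stood at 13.85 in palp replicate 1 at 48 h, the array of that group with yolk protein transcripts, above 13.33 to 13.37.

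In 4 cases the change with 48 h of fasting differed between a part and head in limma's test of that difference. The change of mdy was 0.99 higher in antenna than in head (adjusted p = 0.000900) and 0.68 higher in palp than in head (adjusted p = 0.0463). The changes of ACC and ATPCL in body minus those in head were -0.49 (adjusted p = 0.0200) and -0.84 (adjusted p = 0.0219).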

How the results depend on the processing

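Of 2064 values under other settings, 1960 kept their direction and side of the threshold or stayed uncalled, 50 became calls, 51 lost theirs and 3 turned. In unfasted body against head, cyclic loess scaling gave 0.066 for ACC and 0.21 for mino, and the 3' minus 5' covariate gave -0.48 for ATPCL. Of 3888 values with 1 array left out, 16 became calls and 106 lost theirs. Counts of the 10 genes called that moved by over 1.5 times were these. With the pool as a fixed block, antenna had 2 at 48 h and 1 at 24 h, head 7 at 24 h, and head and body 1 each at 48 h against 24 h. With the pool as a random block, head had 7 at 24 h and 1 at 48 h against 24 h. With array weights, head had 7 at 24 h, palp and head 1 each at 48 h against 24 h, and the differences in change numbered 2 for antenna and 5 for body. Antenna at 24 h had 1 with no filter, with the 3' minus 5' covariate and with the gut covariate. Body at 48 h had 4 with the gut covariate, and body at 48 h against 24 h had 1 in a single fit. The palp difference in change had 0 with no filter, with the 3' minus 5' covariate, without the 5 arrays set aside and without the pool 4 arrays at 48 h, and the last setting left 1 for body. The cause was not tested.

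With single arrays left out, calls against 0 h numbered 2 to 4 at 48 h and 1 to 3 at 24 h in antenna, 4 to 5 at both times in palp, 6 to 7 and 5 to 6 in body, and 5 to 7 and 4 to 5 in head. Against 24 h they numbered 0 in antenna and palp, 0 to 2 in body (FASN2 and mdy without 48 h replicate 3, ATPCL without 24 h replicate 3) and 0 to 1 in head. Differences in change gave 1 for antenna, 0 to 1 for palp and 1 to 5 for body; unfasted comparisons gave 7 to 9, 4 to 6 and 4 to 6. Besides the changes given beside each result, the fixed block made unfasted mdy higher in antenna than in head (adjusted p = 0.0282) and changed no other call of the 10 genes. The random block also made Desat1 a rise (0.0444) and SREBP and mdy calls (0.0144 and 0.00703) in head at 24 h, mdy a fall in head at 48 h against 24 h (0.0143), and FASN1 a fall in body at 24 h (0.0408). Signals near 4 or below, as for FASN2 outside body, limit what can be seen.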
